A study of Mus musculus with 16 samples.

Results

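The transcripts described here encode actin and the proteins that work with it in the contractile cytoskeleton. They are 10 genes in cultured mouse articular chondrocytes: the smooth muscle actins Acta2 and Actg2, the actin-binding proteins Tagln, Tagln2, Cnn1 and Cnn2, the tropomyosins Tpm1 and Tpm2, the myosin light chain Myl9, and the intermediate filament protein Vim. They were chosen by gene symbol, with earlier results of these data known, and all 10 were found among 55450 listed genes. All 10 passed the filter on low values that left 12976 genes for testing, and each was above 1 FPKM in all 16 libraries.

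Messenger RNA was sequenced in primary chondrocytes, the cells of joint cartilage, which the study treated to induce senescence, a lasting growth arrest. There were 4 groups of 4 libraries each. In the bleomycin group, cells were held in serum-free medium with 4 U/mL hyaluronidase for 4 h at 2 days after plating, exposed to the DNA-breaking drug bleomycin at 50 µg/mL for 24 h, and then left in drug-free medium for 5 days. In the doxorubicin group, cells received the topoisomerase poison doxorubicin at 50 nM for 5 days, with new medium every 48 h. In the IL-1β group, cells received the inflammatory cytokine interleukin-1 beta at 1 ng/mL for 24 h, a control for acute inflammatory stress. The vehicle group is labelled vehicle, and the protocol names an equal volume of saline for 24 h beside the cytokine. All groups were kept in 10% serum at 3% oxygen. The labels do not state when vehicle cells were harvested or whether they met hyaluronidase, so drug, time in culture and handling cannot be told apart in the comparisons of the drugs with vehicle. They also do not say whether the 4 libraries of a group came from separate cultures or animals, so p-values measure only the spread between these libraries.

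Actin filaments slide over bundles of myosin II to produce force. Tropomyosin lies along the filament, while calponin and transgelin bind its side, and the regulatory light chain of myosin switches the motor on when it is phosphorylated. Many genes of this set are transcribed through serum response factor (SRF), which binds a DNA element called the CArG box together with myocardin-related factors that respond to the pool of free actin. Chondrocytes that flatten and spread in culture are known to build actin stress fibres and to express smooth muscle actin.

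Levels are given as FPKM, mapped fragments scaled to transcript length and library size, a scale on which genes of different length can be set side by side. The FPKM of a library summed to between 405159 and 423830 in the bleomycin, doxorubicin and vehicle groups and to between 521294 and 559190 in the IL-1β group. In the IL-1β libraries 1 gene, Saa3, held 11.99% to 14.4% of that sum. Depth, estimated from the steps between low values, was 15.7 to 22.3 M fragments (M, mega) per library. All 11 chondrocyte markers examined were tested, and their summed level was 9068 to 12036 FPKM in bleomycin, 9103 to 11984 FPKM in doxorubicin, 5730 to 6130 FPKM in IL-1β and 12379 to 16410 FPKM in vehicle libraries, which matches the labelled cell type. Of 11 vascular smooth muscle and pericyte markers, 7 passed the filter, and all 11 summed to 70.6 to 78.6 FPKM in bleomycin, 83.5 to 88.7 FPKM in doxorubicin, 55.0 to 61.7 FPKM in IL-1β and 81.1 to 96.9 FPKM in vehicle libraries. Levels differed widely within this list. Myh11, smooth muscle myosin, averaged 0.116, 0.342, 0.0562 and 0.0856 FPKM in bleomycin, doxorubicin, IL-1β and vehicle libraries, and Myocd, its master regulator, 0.0394, 0.0565, 0.0305 and 0.0679 FPKM. In the same order, Cspg4 averaged 42.5, 44.6, 31.1 and 57.2 FPKM, Pdgfrb 18.5, 20.7, 17.9 and 17.7 FPKM, and Mcam 4.81, 7.21, 5.64 and 9.38 FPKM. None of 6 endothelial markers passed the filter. Of 10 skeletal muscle markers 3 passed, and all 10 summed to 7.36 to 9.87 FPKM in bleomycin, 5.82 to 7.91 FPKM in doxorubicin, 3.85 to 5.89 FPKM in IL-1β and 11.9 to 17.3 FPKM in vehicle libraries, and of 7 macrophage markers 2 passed, and all 7 summed to 9.45 to 11.3 FPKM in bleomycin, 8.03 to 11.1 FPKM in doxorubicin, 21.2 to 27.7 FPKM in IL-1β and 3.90 to 6.43 FPKM in vehicle libraries. Fibroblast markers, 8 of 8 tested, summed to 2828 to 3005 FPKM in bleomycin, 2807 to 2966 FPKM in doxorubicin, 923 to 1157 FPKM in IL-1β and 2477 to 2913 FPKM in vehicle libraries. Most of the sum came from Col1a1, Col1a2 and Col3a1, at 1092, 1063 and 458 FPKM in vehicle, so it does not stand for each marker. Called against vehicle as defined below, 3 of the 8 rose and 1 fell after bleomycin. After doxorubicin 4 rose and 1 fell, and after IL-1β 3 rose and 5 fell. Some of these calls were lost under the alternatives listed below. The part of these cell types in the results was not tested. Whether fewer cells of a kind or less RNA per cell gave a lower level cannot be told apart in bulk libraries.

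In vehicle cells the genes spanned a wide range of levels. Vim, the intermediate filament of mesenchymal cells, came first at 1081 ± 112 FPKM (mean ± SD of 4 libraries, as in all values below), followed by Acta2 at 233 ± 40.4 FPKM and Tpm1 at 207 ± 20.0 FPKM. Tagln2 at 168 ± 30.9, Tagln at 149.8 ± 26.0, Tpm2 at 128 ± 14.3 and Cnn2 at 126 ± 11.2 FPKM formed a middle group. Myl9 stood at 54.4 ± 7.33 FPKM, Actg2 at 11.6 ± 2.73 FPKM and Cnn1 at 9.65 ± 1.94 FPKM. Neighbours in this order overlapped between libraries except at 3 steps, from Vim to Acta2, from Cnn2 to Myl9 and from Myl9 to Actg2. The cytoplasmic actin Actb was higher than Acta2, at 884 ± 63.3 FPKM in vehicle libraries.

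**Figure D1:**
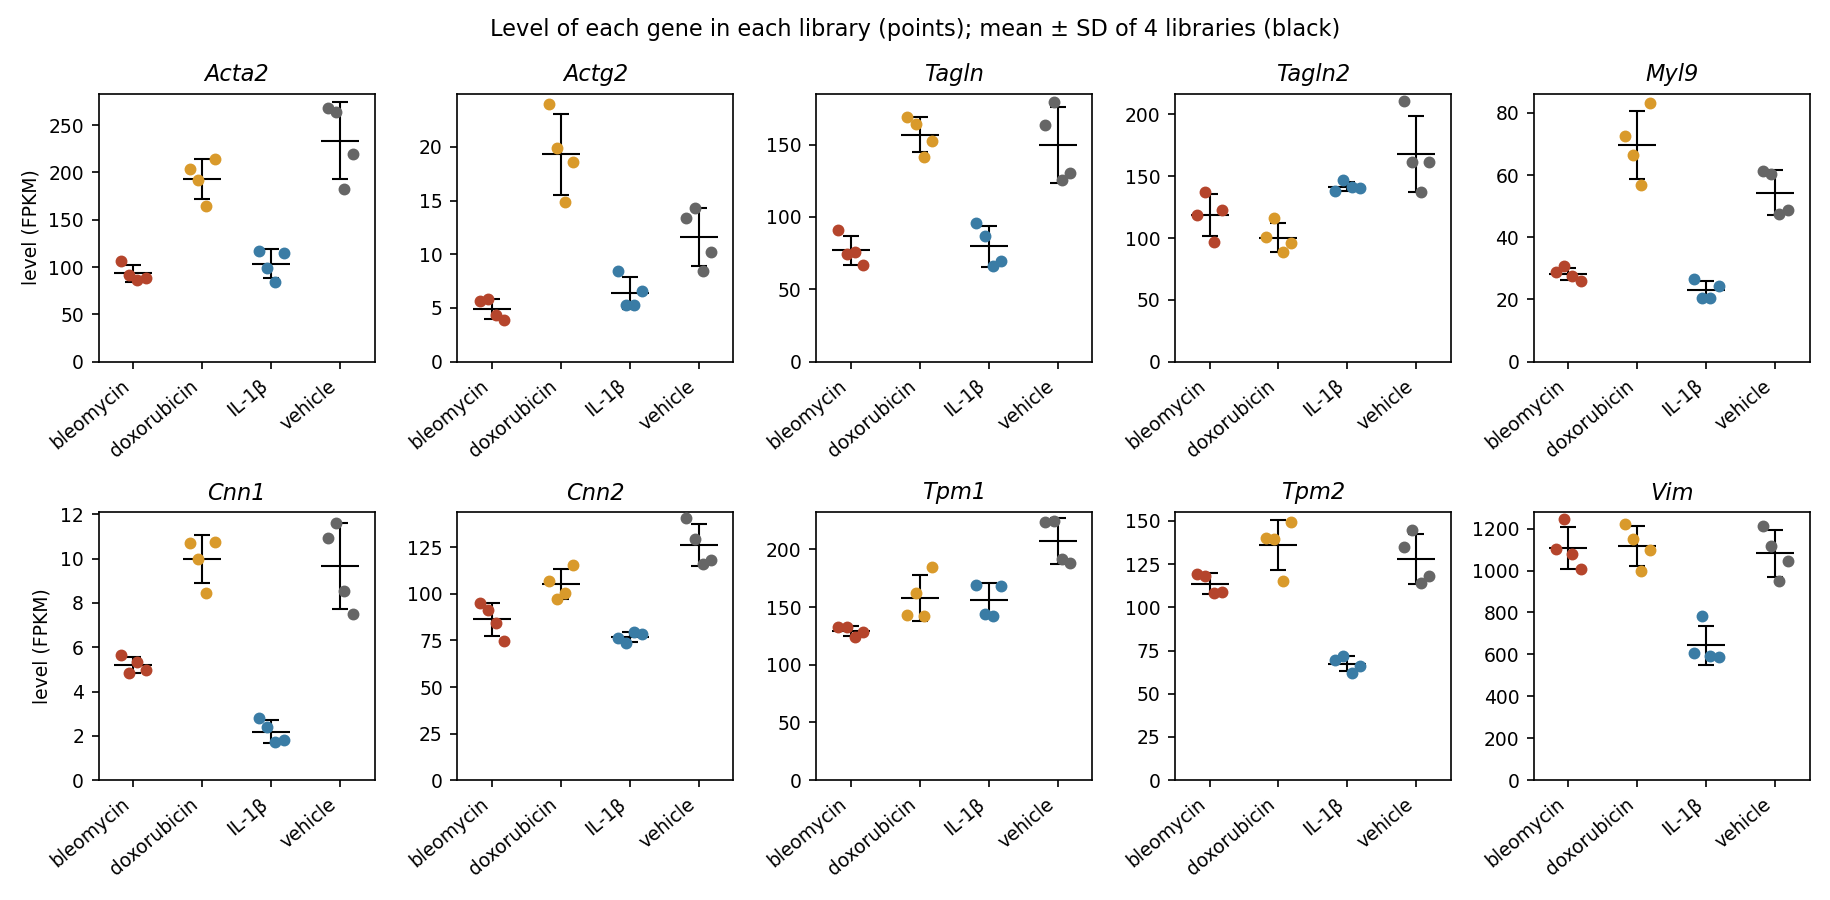
Level in FPKM (vertical axes, linear, from 0) of each of the 10 genes in the bleomycin, doxorubicin, IL-1β and vehicle groups; points are the 4 libraries of a group, and black lines the mean ± SD. Acta2 lies at 86.7 to 107 FPKM in bleomycin and 84.1 to 117 FPKM in IL-1β libraries, below the 164 to 214 FPKM of doxorubicin and the 182 to 268 FPKM of vehicle libraries.

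All 10 genes are annotated as protein coding on mouse build GRCm38, in GENCODE M21. Acta2 (ENSMUSG00000035783.9) lies on the minus strand at chr19:34241090-34255590, and Actg2 (ENSMUSG00000059430.14) on the minus strand at chr6:83512905-83536265. Chromosome 9 carries 3 of the genes: Tagln (ENSMUSG00000032085.5) at chr9:45929619-45936058, minus strand, Cnn1 (ENSMUSG00000001349.5) at chr9:22099216-22109630, plus strand, and Tpm1 (ENSMUSG00000032366.15) at chr9:67022590-67049406, minus strand. Chromosome 2 carries Myl9 (ENSMUSG00000067818.6) at chr2:156775420-156781658 and Vim (ENSMUSG00000026728.9) at chr2:13573927-13582826, both on the plus strand. Tagln2 (ENSMUSG00000026547.15) lies at chr1:172500047-172507380, plus strand, Cnn2 (ENSMUSG00000004665.10) at chr10:79988584-79996062, plus strand, and Tpm2 (ENSMUSG00000028464.16) at chr4:43514711-43523765, minus strand. Tagln overlaps 2 genes on the opposite strand, Pcsk7, with at most 9.81 FPKM in any library, and Gm48529, with at most 1.42 FPKM. The library kit keeps the strand, but the strand setting of the counting step was not stated. The smooth muscle actins are close relatives of other actins. Of 2096 stretches of 100 bases along the transcripts of Acta2, 0 were identical to a stretch of another gene, and of 2146 stretches of 50 bases, 7 (0.33%) were, among them stretches of Actg1.

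Promoter windows of 300 bases, 250 before and 50 after the RefSeq start on GRCm38.p6, matched 8 of the 10 genes, and Actg2 and Tagln had no entry. The windows of Acta2 (chr19:34255324-34255623, minus strand), Myl9 (chr2:156775214-156775513, plus strand) and Cnn2 (chr10:79988350-79988649, plus strand) are printed 5′ to 3′ because they hold CArG-type letters and because these genes differed between groups. Capitals mark matches to the CArG box, or to a CArG box with 1 inner base changed, a looser form added after the Acta2 window had been read.
Acta2 promoter: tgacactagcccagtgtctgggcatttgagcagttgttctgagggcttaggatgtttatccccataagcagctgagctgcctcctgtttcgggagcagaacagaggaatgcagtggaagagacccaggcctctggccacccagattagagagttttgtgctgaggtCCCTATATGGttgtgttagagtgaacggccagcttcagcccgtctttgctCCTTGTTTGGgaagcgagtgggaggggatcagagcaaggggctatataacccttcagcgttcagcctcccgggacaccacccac
Myl9 promoter: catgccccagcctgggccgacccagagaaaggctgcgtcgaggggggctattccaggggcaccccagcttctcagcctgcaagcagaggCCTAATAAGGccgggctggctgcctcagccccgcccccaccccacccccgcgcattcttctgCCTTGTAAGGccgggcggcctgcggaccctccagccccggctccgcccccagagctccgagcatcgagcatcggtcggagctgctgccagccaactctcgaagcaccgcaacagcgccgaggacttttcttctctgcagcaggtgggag
Cnn2 promoter: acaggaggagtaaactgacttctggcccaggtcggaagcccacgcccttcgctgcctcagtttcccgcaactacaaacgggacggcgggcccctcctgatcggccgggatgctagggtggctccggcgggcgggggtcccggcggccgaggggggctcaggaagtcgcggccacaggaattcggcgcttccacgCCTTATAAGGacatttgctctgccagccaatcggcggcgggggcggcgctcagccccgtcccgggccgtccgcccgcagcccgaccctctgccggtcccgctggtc
On either strand, an exact CArG box was found once in Myl9, at position -161 from the start, and once in Cnn2, at -56. The looser form was found at -84 and -34 in Acta2 and at -99 in Myl9. Among 32851 promoter windows of the same length, 1.63% held the exact box and 8.50% the looser form. The exact letters of the TATA motif TATAAA, held by 13.6% of windows, were found in Vim alone among the 8, at -32. Variants of this motif were not searched, such as the letters tatataa in the Acta2 window. CATTCC, the core letters bound by TEAD factors and held by 14.7% of windows, was found in Acta2, Tpm1 and, at 2 places, Tagln2. The GC box GGGCGG, held by 35.7% of windows, was found in Tagln2, Myl9, Cnn2, Tpm1 and Tpm2. None of the 5 motifs was found in the Cnn1 window. These matches are letters in a window, and binding was not measured. No match overlapped another.

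**Figure D2:**
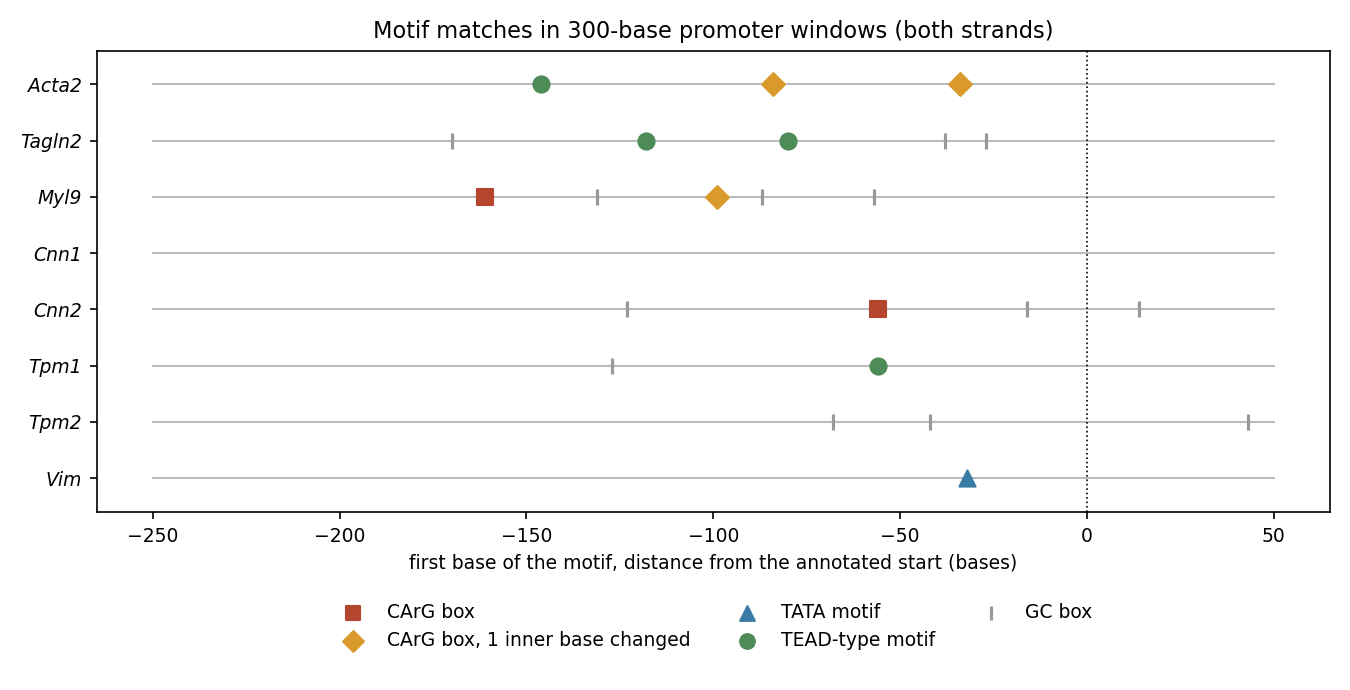
Position of each motif match in the promoter windows of the 8 genes with a RefSeq entry; the horizontal axis is the distance in bases of the first base of a match from the annotated start, and each symbol is 1 motif. Exact CArG boxes lie at -161 in Myl9 and -56 in Cnn2, and the looser form lies at -84 and -34 in Acta2 and at -99 in Myl9.

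Differences were tested with limma on log2(FPKM + 1) over all tested genes, and a gene was called at a Benjamini-Hochberg adjusted p under 0.05. Log2 differences below are on that scale with their SE, and folds are ratios of mean FPKM. All comparisons with vehicle use the same 4 vehicle libraries. Against vehicle, 8 of the 10 genes fell after bleomycin, 2 rose and 3 fell after doxorubicin, and 9 fell after IL-1β. Of all tested genes, 46.9% were called after bleomycin (27.9% higher and 19.0% lower), 48.3% after doxorubicin (25.4% higher and 22.8% lower) and 43.0% after IL-1β (24.5% higher and 18.4% lower). The median log2 difference of the 10 genes was -0.72 after bleomycin, 0.05 after doxorubicin and -0.83 after IL-1β, where over all tested genes it was 0.06, 0.02 and 0.03.

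Of the 7 vascular smooth muscle and pericyte markers tested, 2 rose and 2 fell after bleomycin, 3 rose and 2 fell after doxorubicin, and 2 rose and 3 fell after IL-1β. Notch3, a receptor of vascular smooth muscle cells and pericytes, rose in every treatment, to 3.32 ± 0.404 FPKM in bleomycin, 5.18 ± 1.31 FPKM in doxorubicin and 1.84 ± 0.473 FPKM in IL-1β, against 0.747 ± 0.185 FPKM in vehicle libraries. Rgs5, a pericyte regulator of G-protein signalling, rose 3.56-fold after doxorubicin to 2.69 ± 0.598 FPKM, against 0.755 ± 0.208 FPKM in vehicle. It was also called higher after bleomycin and IL-1β, by 0.48 on the log2 scale in each; the bleomycin call was lost under quantile scaling and the IL-1β call under TPM scaling. Lmod1, leiomodin of smooth muscle, rose 4.09-fold after doxorubicin to 2.41 ± 0.346 FPKM, against 0.59 ± 0.102 FPKM in vehicle. Cspg4, the most abundant marker on the list, and Mcam fell in every treatment, Cspg4 to 42.5 ± 3.82 FPKM in bleomycin, 44.6 ± 1.49 FPKM in doxorubicin and 31.1 ± 3.03 FPKM in IL-1β, against 57.2 ± 6.27 FPKM in vehicle. The part of these markers in the results of the 10 genes was not tested.

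**Figure D3:**
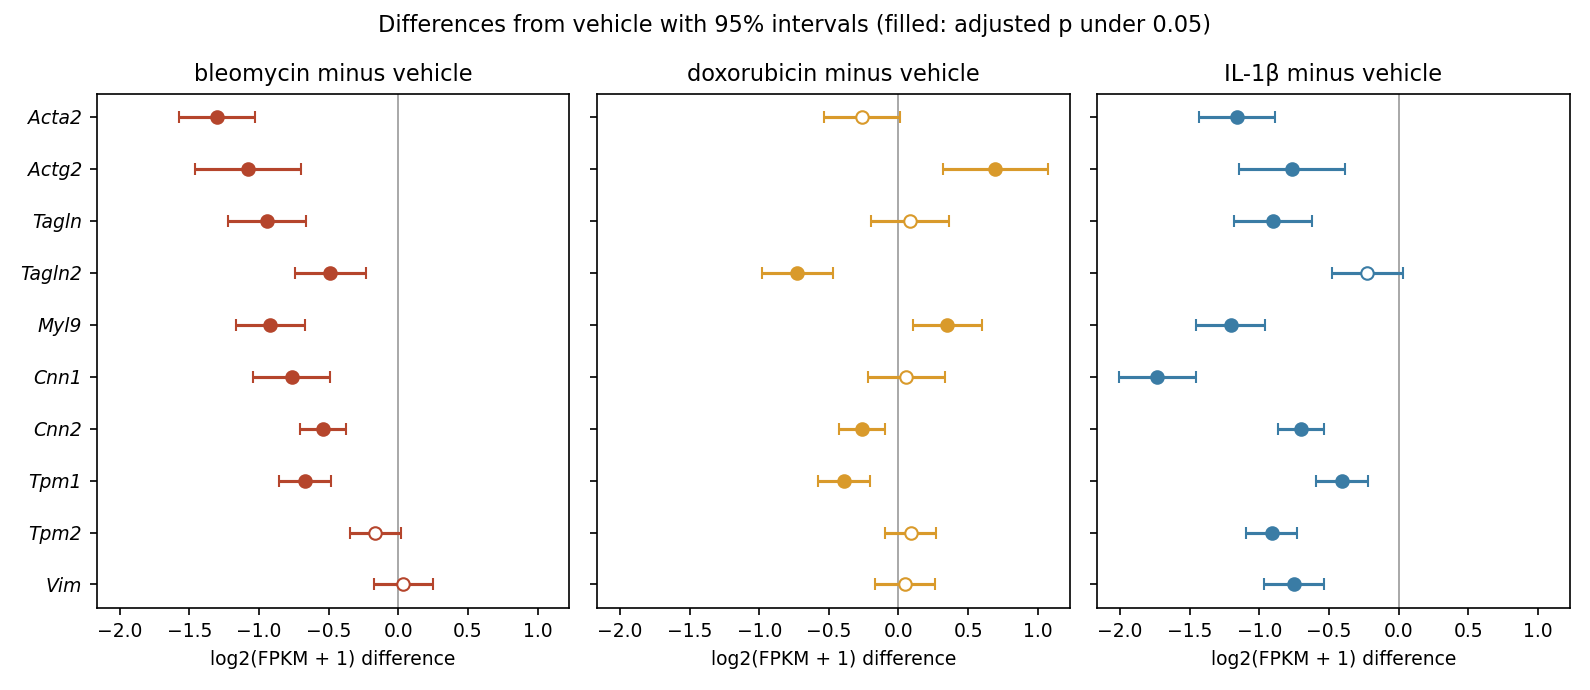
Log2(FPKM + 1) difference from vehicle (horizontal axes) of each gene after bleomycin, doxorubicin and IL-1β, with 95% intervals; filled points are called at an adjusted p under 0.05. After bleomycin Acta2 is farthest from 0 at -1.30, after IL-1β Cnn1 is farthest at -1.73, and after doxorubicin Actg2 lies above 0 at 0.70 and Tagln2 below it at -0.73.

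Both smooth muscle actins fell after bleomycin and after IL-1β, and neither was called between those treatments. Acta2, the actin of smooth muscle and of myofibroblast stress fibres, measured 107, 92.0, 86.7 and 88.1 FPKM in bleomycin libraries, 203, 192, 164 and 214 FPKM in doxorubicin libraries, 117, 98.6, 84.1 and 114 FPKM in IL-1β libraries, and 268, 264, 182 and 219.9 FPKM in vehicle libraries. Every bleomycin and IL-1β library was below every doxorubicin and vehicle library, and doxorubicin overlapped vehicle. Acta2 fell 2.50-fold after bleomycin (log2 difference -1.30 ± 0.13, limma adjusted p = 6.39e-07) and 2.25-fold after IL-1β (-1.16 ± 0.13, limma adjusted p = 1.74e-06). After doxorubicin it averaged 193 ± 21.2 FPKM against 233 ± 40.4 FPKM in vehicle, a log2 difference of -0.26 with a 95% interval of -0.53 to 0.01 that did not pass (limma adjusted p = 0.106). It did pass without vehicle replicate 3, the lowest of that group, at -0.37 (limma adjusted p = 0.0189).

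Actg2, the gamma actin of visceral smooth muscle, was much lower than Acta2 and was ordered differently. It measured 5.62, 5.84, 4.36 and 3.84 FPKM in bleomycin libraries, 24.0, 19.9, 14.8 and 18.6 FPKM in doxorubicin libraries, 8.41, 5.26, 5.32 and 6.54 FPKM in IL-1β libraries, and 13.4, 14.3, 8.47 and 10.2 FPKM in vehicle libraries. Every doxorubicin library was above every vehicle library, while every bleomycin and IL-1β library was below, IL-1β replicate 1 by a narrow margin. Actg2 fell 2.36-fold after bleomycin (log2 difference -1.08 ± 0.18, limma adjusted p = 0.000121), rose 1.66-fold after doxorubicin (0.70 ± 0.18, limma adjusted p = 0.00405), and fell 1.82-fold after IL-1β (-0.77 ± 0.18, limma adjusted p = 0.00233). Within a library, Actg2 was 0.0525 ± 0.00824 of the Acta2 level in bleomycin, 0.0996 ± 0.0142 in doxorubicin, 0.0614 ± 0.00805 in IL-1β and 0.0493 ± 0.00375 in vehicle libraries. The lowest doxorubicin ratio, 0.0869, was above the highest ratio of the other groups, 0.0718 in IL-1β.

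Of the other actins, 3 were tested. Actb, the beta actin of all cells, fell in every treatment, to 656 ± 34.6 FPKM in bleomycin, 649 ± 13.8 FPKM in doxorubicin and 699 ± 41.6 FPKM in IL-1β, against 884 ± 63.3 FPKM in vehicle libraries, with log2 differences of -0.43, -0.44 and -0.34. Actg1, the cytoplasmic gamma actin, averaged 430 ± 38.2 FPKM in bleomycin, 415 ± 30.4 FPKM in doxorubicin, 323 ± 65.2 FPKM in IL-1β and 452 ± 111 FPKM in vehicle libraries and passed after IL-1β, where it fell by 0.47 on the log2 scale, a call lost with no filter, in a fit of these groups alone, and without IL-1β replicate 4 or vehicle replicate 1, 2 or 3. The skeletal actin Acta1 was near 2 FPKM and fell after IL-1β to 0.858 ± 0.276 FPKM, against 2.19 ± 0.573 FPKM in vehicle, and the cardiac actin Actc1 did not pass the filter. Acta2 relative to Actb was 0.142 ± 0.00714 in bleomycin, 0.298 ± 0.0352 in doxorubicin, 0.149 ± 0.0295 in IL-1β and 0.263 ± 0.0291 in vehicle libraries, so bleomycin and IL-1β were also lower on this ratio, while doxorubicin and vehicle overlapped.

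Of the transgelins, Tagln followed Acta2 and Tagln2 did not. Tagln, the SM22 protein that cross-links actin in smooth muscle, measured 90.9, 74.3, 75.9 and 66.9 FPKM in bleomycin libraries, 169, 164, 142 and 152 FPKM in doxorubicin libraries, 96.1, 86.9, 66.3 and 69.8 FPKM in IL-1β libraries, and 163, 179.6, 126 and 131 FPKM in vehicle libraries. Bleomycin and IL-1β overlapped each other below the other groups, and doxorubicin lay within the vehicle range. Tagln fell 1.95-fold after bleomycin (log2 difference -0.94 ± 0.13, limma adjusted p = 2.53e-05) and 1.88-fold after IL-1β (-0.90 ± 0.13, limma adjusted p = 3.72e-05). After doxorubicin its log2 difference was 0.08, with a 95% interval of -0.20 to 0.36 (limma adjusted p = 0.65).

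Tagln2, the transgelin found in many cells outside muscle, measured 119, 138, 96.7 and 123 FPKM in bleomycin libraries, 101, 116, 88.4 and 95.7 FPKM in doxorubicin libraries, 138, 147, 141 and 140.2 FPKM in IL-1β libraries, and 211, 161, 137 and 162 FPKM in vehicle libraries. Doxorubicin was lowest here, with all 4 libraries below all vehicle libraries, and bleomycin overlapped vehicle at a single pair of libraries. Tagln2 fell 1.41-fold after bleomycin (log2 difference -0.49 ± 0.12, limma adjusted p = 0.00331) and 1.67-fold after doxorubicin (-0.73 ± 0.12, limma adjusted p = 0.000103). After IL-1β its log2 difference was -0.23, with a 95% interval of -0.48 to 0.03 (limma adjusted p = 0.145). That difference passed when values were scaled to TPM, which gives every library the same sum, at -0.60, or by quantiles, at -0.31, and without vehicle replicate 3, at -0.32. Tagln relative to Tagln2 was 0.659 ± 0.135 in bleomycin, 1.57 ± 0.115 in doxorubicin, 0.564 ± 0.103 in IL-1β and 0.903 ± 0.153 in vehicle libraries, and every doxorubicin library, from 1.41 up, exceeded every vehicle library, at most 1.11.

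Myl9, a regulatory light chain of smooth muscle and non-muscle myosin II, measured 28.7, 30.6, 27.5 and 25.9 FPKM in bleomycin libraries, 72.6, 66.4, 56.9 and 83.1 FPKM in doxorubicin libraries, 26.7, 20.4, 20.6 and 24.2 FPKM in IL-1β libraries, and 61.2, 60.2, 47.4 and 48.7 FPKM in vehicle libraries. Bleomycin and IL-1β libraries were all below vehicle, and doxorubicin overlapped vehicle in its lowest library. Myl9 fell 1.93-fold after bleomycin (log2 difference -0.92 ± 0.12, limma adjusted p = 9.84e-06) and 2.37-fold after IL-1β (-1.21 ± 0.12, limma adjusted p = 3.86e-07). It rose 1.28-fold after doxorubicin (0.35 ± 0.12, limma adjusted p = 0.0209). This rise did not pass without doxorubicin replicate 1 or 4 or vehicle replicate 3 or 4 (limma adjusted p = 0.0526, 0.079, 0.0694 and 0.065), nor with no filter on low values (limma adjusted p = 0.0528).

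Myl6, the essential light chain that pairs with the motor in the same cells, averaged 766 ± 49.1 FPKM in bleomycin, 795 ± 74.3 FPKM in doxorubicin, 871 ± 35.2 FPKM in IL-1β and 855 ± 36.7 FPKM in vehicle libraries and was called in none of the comparisons with vehicle. Myl9 relative to Myl6 was 0.0368 ± 0.000359 in bleomycin, 0.0874 ± 0.00595 in doxorubicin, 0.0265 ± 0.00437 in IL-1β and 0.0635 ± 0.00692 in vehicle libraries. All 4 groups were separate on this ratio, with doxorubicin highest and IL-1β lowest.

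Cnn1, the smooth muscle calponin, gave the largest log2 difference from vehicle of the 10 genes. It measured 5.67, 4.84, 5.32 and 4.96 FPKM in bleomycin libraries, 10.7, 9.99, 8.45 and 10.8 FPKM in doxorubicin libraries, 2.82, 2.42, 1.71 and 1.82 FPKM in IL-1β libraries, and 10.9, 11.6, 8.54 and 7.51 FPKM in vehicle libraries. IL-1β was lowest, bleomycin lay between IL-1β and vehicle without overlap, and doxorubicin overlapped vehicle. Cnn1 fell 4.40-fold after IL-1β (log2 difference -1.73 ± 0.13, limma adjusted p = 1.95e-08) and 1.86-fold after bleomycin (-0.77 ± 0.13, limma adjusted p = 0.000169). After doxorubicin the difference was 0.06, with a 95% interval of -0.22 to 0.33 (limma adjusted p = 0.754).

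Cnn2, the calponin of non-muscle cells, measured 95.1, 91.2, 84.4 and 74.8 FPKM in bleomycin libraries, 107, 97.4, 100.5 and 116 FPKM in doxorubicin libraries, 76.5, 73.4, 79.5 and 78.7 FPKM in IL-1β libraries, and 141, 129, 116 and 118 FPKM in vehicle libraries. All treated libraries were below all vehicle libraries. Cnn2 fell 1.46-fold after bleomycin (log2 difference -0.54 ± 0.08, limma adjusted p = 3.52e-05), 1.20-fold after doxorubicin (-0.26 ± 0.08, limma adjusted p = 0.0118) and 1.64-fold after IL-1β (-0.70 ± 0.08, limma adjusted p = 2.03e-06). Cnn1 relative to Cnn2 was 0.0605 ± 0.00564 in bleomycin, 0.0950 ± 0.00835 in doxorubicin, 0.0286 ± 0.00746 in IL-1β and 0.0762 ± 0.0109 in vehicle libraries.

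The tropomyosins, the coiled coils that run along the actin filament, also parted from each other. Tpm1 measured 133, 132, 124 and 128 FPKM in bleomycin libraries, 143, 162, 143 and 185 FPKM in doxorubicin libraries, 169, 144, 143 and 168 FPKM in IL-1β libraries, and 224, 225, 191 and 188 FPKM in vehicle libraries. Every treated library was below every vehicle library. Tpm1 fell 1.60-fold after bleomycin (log2 difference -0.67 ± 0.09, limma adjusted p = 1.45e-05), 1.31-fold after doxorubicin (-0.39 ± 0.09, limma adjusted p = 0.00167) and 1.33-fold after IL-1β (-0.41 ± 0.09, limma adjusted p = 0.00139).

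Tpm2, the beta tropomyosin of muscle and fibroblasts, measured 119, 118, 108 and 109 FPKM in bleomycin libraries, 140.2, 139, 115 and 149 FPKM in doxorubicin libraries, 69.7, 71.6, 62.0 and 65.8 FPKM in IL-1β libraries, and 135, 145, 114 and 118 FPKM in vehicle libraries. IL-1β stood apart below the other groups, which overlapped. Tpm2 fell 1.90-fold after IL-1β (log2 difference -0.91 ± 0.09, limma adjusted p = 2.73e-07). The difference was -0.16 after bleomycin (95% interval -0.35 to 0.02, limma adjusted p = 0.131) and 0.09 after doxorubicin (95% interval -0.09 to 0.27, limma adjusted p = 0.427), and the bleomycin difference passed under median-of-ratios scaling, at -0.25 (limma adjusted p = 0.0201). Tpm2 relative to Tpm1 was 0.878 ± 0.0224 in bleomycin, 0.864 ± 0.0815 in doxorubicin, 0.434 ± 0.0463 in IL-1β and 0.617 ± 0.0221 in vehicle libraries. Both drug groups were above vehicle on this ratio, and IL-1β was below it, without overlap. Tpm1 has 21 annotated transcripts and Tpm2 has 6, and gene-level FPKM do not separate them.

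Vim measured 1102, 1244, 1078 and 1009 FPKM in bleomycin libraries, 1224, 1149, 995 and 1097 FPKM in doxorubicin libraries, 609, 784, 593 and 588 FPKM in IL-1β libraries, and 1213, 1119, 950.0 and 1043 FPKM in vehicle libraries. The drug groups overlapped vehicle and IL-1β was below all of them. Vim fell 1.68-fold after IL-1β (log2 difference -0.75 ± 0.10, limma adjusted p = 1.47e-05). The difference was 0.04 after bleomycin (95% interval -0.18 to 0.25, limma adjusted p = 0.79) and 0.05 after doxorubicin (95% interval -0.17 to 0.26, limma adjusted p = 0.728).

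**Figure D4:**
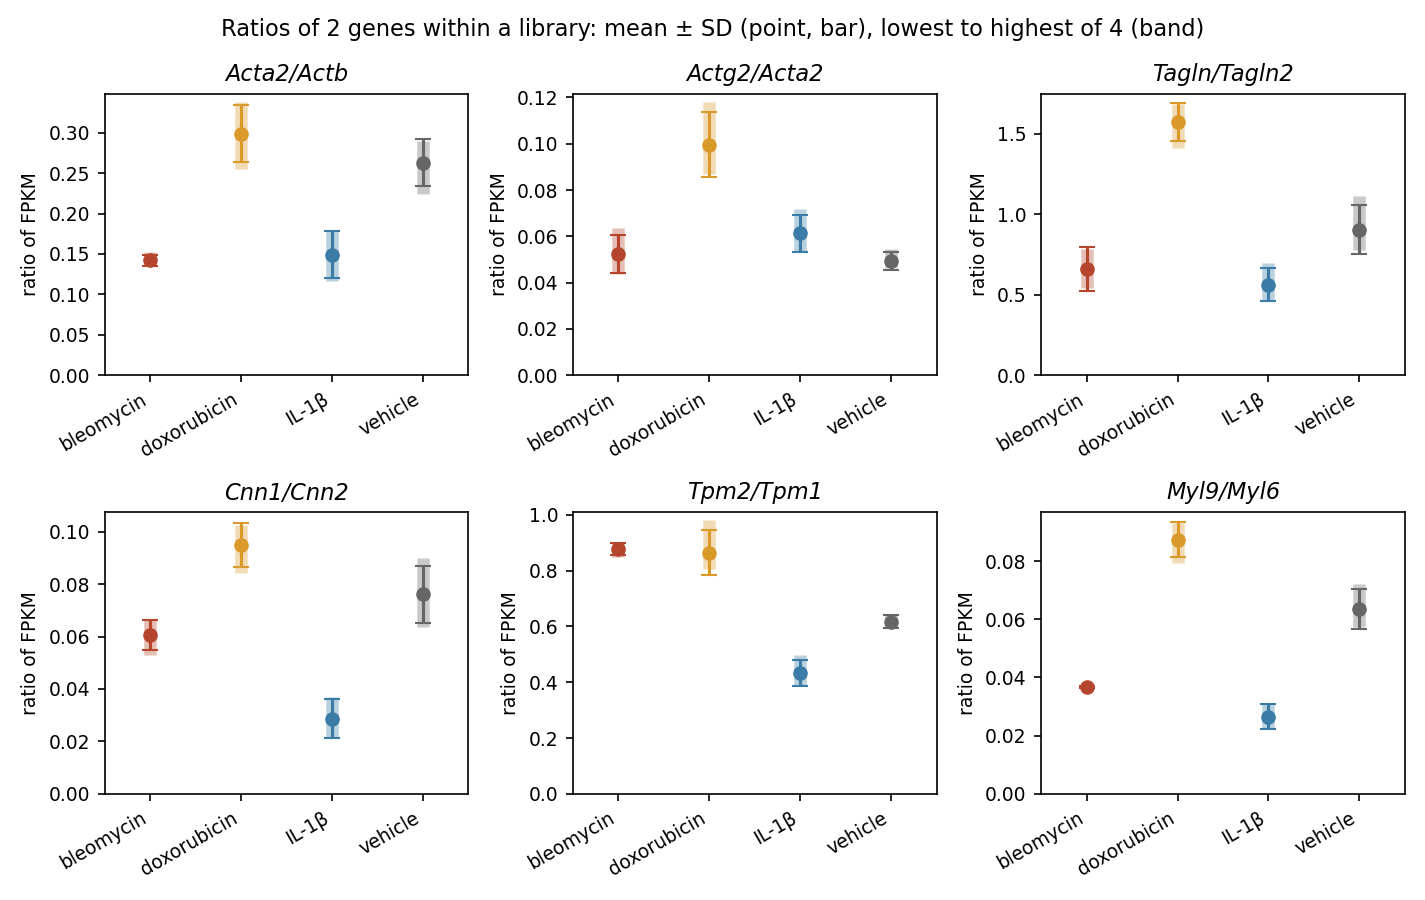
Ratio of the FPKM of 2 related genes within a library (vertical axes, from 0) in each group; points and bars are the mean ± SD of 4 libraries and the pale band runs from the lowest to the highest. Tagln over Tagln2 averages 1.57 in doxorubicin against 0.903 in vehicle, and Tpm2 over Tpm1 averages 0.878 in bleomycin and 0.434 in IL-1β against 0.617 in vehicle.

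Counted by overlap of libraries, 7 of the 10 genes after bleomycin, 4 after doxorubicin and 9 after IL-1β had group ranges that did not overlap vehicle, where 43.9%, 44.1% and 38.5% of all tested genes did. The summed level of the 10 genes ran from 1633 to 1931 FPKM in bleomycin, 1828 to 2194 FPKM in doxorubicin, 1197 to 1433 FPKM in IL-1β and 1881 to 2440 FPKM in vehicle libraries. Libraries of a group also moved together: replicate 3 was lowest in vehicle for 8 of the 10 genes and lowest in doxorubicin for 9, and vehicle replicates 1 and 2 were both above replicates 3 and 4 for 9. Leaving out each library changed the calls named beside the genes, and a block for replicate number lost no call and added 6, among them Acta2 for doxorubicin minus vehicle (limma adjusted p = 0.0155).

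Bleomycin and doxorubicin, both used to induce senescence, were compared directly. Of the 10 genes, 6 were lower after bleomycin than after doxorubicin, 0 were higher and 4 did not pass, where 10.0% of all tested genes were called, 5.85% higher and 4.18% lower. The median log2 difference, bleomycin minus doxorubicin, was -0.55 over the 10 genes and 0.04 over all tested genes. Actg2 differed most, at 4.91 ± 0.967 FPKM in bleomycin and 19.3 ± 3.76 FPKM in doxorubicin libraries, 3.93-fold lower (log2 difference -1.78 ± 0.18, limma adjusted p = 1.48e-05). Myl9, at 28.2 ± 2.00 FPKM in bleomycin and 69.8 ± 10.98 FPKM in doxorubicin libraries, was 2.48-fold lower (-1.27 ± 0.12, limma adjusted p = 8.07e-06).

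Acta2 was 2.07-fold lower after bleomycin than after doxorubicin (log2 difference -1.04 ± 0.13, limma adjusted p = 9.94e-05), and Tagln was 2.04-fold lower (-1.02 ± 0.13, limma adjusted p = 0.000152). Cnn1 was 1.92-fold lower (-0.82 ± 0.13, limma adjusted p = 0.000815). These 5 genes were called under every scaling, filter and left-out library tried. Cnn2 was 1.22-fold lower (-0.28 ± 0.08, limma adjusted p = 0.0314), a call lost with no filter, in a fit of these groups alone, or without bleomycin replicate 3 or 4 or doxorubicin replicate 1 or 4, where its adjusted p from limma ran from 0.0681 to 0.0975. The other 4 genes did not pass: Tpm1 (-0.28, 95% interval -0.47 to -0.09, limma adjusted p = 0.0576), Tpm2 (-0.25, -0.43 to -0.07, limma adjusted p = 0.0764), Tagln2 (0.24, -0.01 to 0.49, limma adjusted p = 0.233) and Vim (-0.01, -0.22 to 0.20, limma adjusted p = 0.968). Tpm1 and Tpm2 passed under median-of-ratios scaling, at limma adjusted p of 0.0231 and 0.0328. Tpm1 also passed without doxorubicin replicate 1 or 3 (limma adjusted p = 0.0463 and 0.0442). Tpm2 also passed without doxorubicin replicate 3 (limma adjusted p = 0.0182). Libraries of the groups did not overlap for 7 of the 10 genes, against 17.9% of all tested genes. Of all called genes, 58.3% were higher after bleomycin, and 39.7% were under median-of-ratios scaling. The drugs were given on different schedules, and hyaluronidase in serum-free medium is described for the bleomycin group alone. Drug, schedule and this handling cannot be told apart here, and their parts were not tested.

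**Figure D5:**
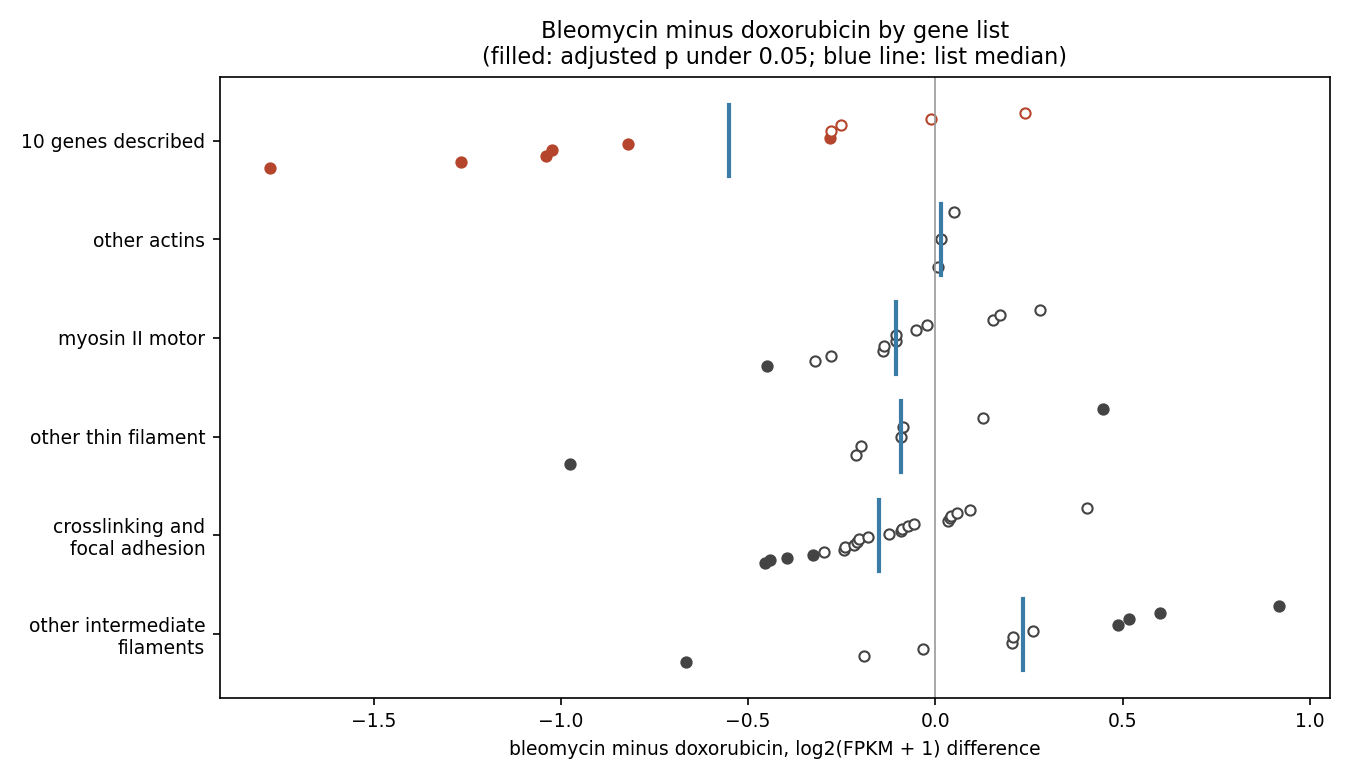
Log2(FPKM + 1) difference, bleomycin minus doxorubicin (horizontal axis), of the 10 genes and of the tested genes of 5 related lists; filled points are called at an adjusted p under 0.05 and blue lines are list medians. The 10 genes have a median of -0.55, while the 5 lists have medians from -0.15 to 0.23. The vascular smooth muscle and pericyte markers, which are not drawn, have a median of -0.49.

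The wider contractile apparatus was read against the 10.0% of all tested genes called between the drugs. Of 3 other actins tested, 0 were called between bleomycin and doxorubicin, with a median log2 difference of 0.02. Of 7 vascular smooth muscle and pericyte markers tested, 3 were lower after bleomycin (Lmod1, Rgs5 and Mcam) and 0 were higher. Their median log2 difference was -0.49, near that of the 10 genes. Of 12 genes of the myosin II motor and its regulation, 1 was called: Mylk, the kinase that phosphorylates the regulatory light chain, at 2.97 ± 0.474 FPKM in bleomycin and 4.40 ± 0.385 FPKM in doxorubicin libraries (log2 difference -0.45). Of 7 other thin filament proteins, Lmod1, leiomodin of smooth muscle, was lower after bleomycin at 0.731 ± 0.142 FPKM, against 2.41 ± 0.346 FPKM after doxorubicin (-0.98), and Tmod1, which caps the slow end of the filament, was higher at 2.77 ± 0.305 FPKM, against 1.78 ± 0.458 FPKM (0.45). Of 22 crosslinking and focal adhesion genes, 4 were lower after bleomycin and 0 higher: Actn1, Vcl, Pdlim5 and Csrp1, singled out after their values were seen. Csrp1, a LIM protein of actin bundles, averaged 80.9 ± 5.53 FPKM in bleomycin and 111 ± 8.58 FPKM in doxorubicin libraries, and Vcl, vinculin of adhesion sites, 49.6 ± 3.95 FPKM and 67.7 ± 4.95 FPKM. Of 10 other intermediate filament genes, 4 were higher (the lamins Lmnb1 and Lmnb2 and the keratins Krt8 and Krt18) and 1 was lower (Nes), also singled out after their values were seen. The keratins were low: Krt8 averaged 0.575 ± 0.181 FPKM in bleomycin and 0.120 ± 0.0831 FPKM in doxorubicin libraries. Krt18 averaged 1.46 ± 0.447 and 0.645 ± 0.442 FPKM and passed narrowly (limma adjusted p = 0.0489). Under median-of-ratios scaling 3 of the 10 were higher and 1 was lower. Myh11 did not pass the filter, and its doxorubicin libraries, from 0.293 to 0.371 FPKM, were above its bleomycin libraries, from 0.0390 to 0.208 FPKM, and its vehicle libraries, from 0.0667 to 0.130 FPKM.

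Bleomycin and IL-1β, each given for 24 h, were compared next. The bleomycin group also had 5 days in drug-free medium, and the hyaluronidase step is described for it alone. The part of these steps in the differences was not tested. After bleomycin, relative to IL-1β, 4 of the 10 genes were higher, 1 was lower and 5 did not pass, where 52.8% of all tested genes were called, 27.6% higher and 25.2% lower. The libraries did not overlap for 5 of the 10 genes and for 47.2% of all tested genes. Acta2 averaged 93.3 ± 9.08 FPKM in bleomycin and 104 ± 15.3 FPKM in IL-1β libraries (log2 difference -0.14, 95% interval -0.41 to 0.13, limma adjusted p = 0.374), and Tagln 77.0 ± 10.1 and 79.8 ± 14.1 FPKM (-0.04, -0.32 to 0.24, limma adjusted p = 0.807). Actg2 (-0.31, limma adjusted p = 0.152), Tagln2 (-0.26, limma adjusted p = 0.0785) and Cnn2 (0.16, limma adjusted p = 0.103) did not pass. Cnn2 passed under TPM scaling, at 0.54 (limma adjusted p = 1.04e-05), under quantile scaling, at 0.28 (limma adjusted p = 0.00366), and without bleomycin replicate 4, at 0.22 (limma adjusted p = 0.0212). Tagln2 passed in a fit of these groups alone (limma adjusted p = 0.0419) and without bleomycin replicate 2 or vehicle replicate 1 (limma adjusted p = 0.0351 and 0.0386). Cnn1, at 5.19 ± 0.374 FPKM in bleomycin and 2.19 ± 0.521 FPKM in IL-1β libraries, was 2.37-fold higher (0.97 ± 0.13, limma adjusted p = 1.27e-05). Tpm2 was 1.69-fold higher (0.75 ± 0.09, limma adjusted p = 2.14e-06) and Vim 1.72-fold higher (0.79 ± 0.10, limma adjusted p = 6.97e-06).

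Myl9 was higher after bleomycin than after IL-1β by 0.29 on the log2 scale (limma adjusted p = 0.048) and Tpm1 lower (-0.26, limma adjusted p = 0.0205). The Myl9 call was lost with no filter, under median-of-ratios scaling and with no trend. It was also lost without bleomycin replicate 1, 2 or 3, doxorubicin replicate 1 or 2, or IL-1β replicate 2, 3 or 4. The Tpm1 call was lost under TPM and quantile scaling, and without bleomycin replicate 3 or IL-1β replicate 1 or 4. Under TPM scaling, which divides by the larger FPKM sum of the IL-1β libraries, Tpm1 turned to 0.12 (limma adjusted p = 0.279) and Tagln to 0.34 (limma adjusted p = 0.0359). That scaling moved the median of all tested genes to 0.37 for bleomycin minus IL-1β, 0.32 for doxorubicin minus IL-1β and -0.31 for IL-1β minus vehicle. The share of called genes that were higher became 86.3%, 82.0% and 16.1% in these comparisons, against 52.2%, 46.2% and 57.1% without it. The 9 genes called lower after IL-1β than in vehicle were also called lower under TPM, median-of-ratios and quantile scaling.

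Doxorubicin and IL-1β differed in 9 of the 10 genes. After doxorubicin, relative to IL-1β, 8 of the 10 genes were higher, 1 was lower and 1 did not pass, where 54.2% of all tested genes were called, 25.1% higher and 29.2% lower. The libraries did not overlap for 9 of the 10 genes and for 47.7% of all tested genes, and the median log2 difference was 0.94 over the 10 genes and -0.03 over all. Cnn1 was 4.55-fold higher (1.79 ± 0.13, limma adjusted p = 1.05e-08), Myl9 3.04-fold (1.56 ± 0.12, limma adjusted p = 1.44e-08) and Actg2 3.03-fold (1.46 ± 0.18, limma adjusted p = 3.69e-06). Tagln2, at 100.3 ± 11.9 FPKM in doxorubicin and 142 ± 3.85 FPKM in IL-1β libraries, was lower (-0.50, limma adjusted p = 0.00215), a call lost under TPM scaling (-0.13, limma adjusted p = 0.382). Tpm1 averaged 158 ± 19.9 and 156 ± 14.7 FPKM (0.02, 95% interval -0.17 to 0.21, limma adjusted p = 0.888), and passed under TPM scaling, at 0.39 (limma adjusted p = 0.00158).

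The related lists were also set against vehicle, where 46.9% of all tested genes were called after bleomycin, 48.3% after doxorubicin and 43.0% after IL-1β. Of 12 genes of the myosin II motor and its regulation, 2 rose and 0 fell after bleomycin, 3 rose and 1 fell after doxorubicin, and 0 rose and 4 fell after IL-1β, or 9 under TPM scaling. Under median-of-ratios scaling, 2 rose and 2 fell after bleomycin, and 2 rose and 2 fell after doxorubicin. Ppp1r12b, a targeting subunit of myosin phosphatase, rose by 0.50 after bleomycin and 0.78 after doxorubicin on the log2 scale, Mylk rose by 0.56 after doxorubicin, and Myh9, the heavy chain of non-muscle myosin, fell after IL-1β to 71.9 ± 6.09 FPKM, against 107 ± 6.85 FPKM in vehicle. Of 7 other thin filament proteins, 2 rose and 2 fell after bleomycin, 3 rose and 2 fell after doxorubicin, and 0 rose and 3 fell after IL-1β, or 7 under TPM scaling. Tmod1 rose after bleomycin to 2.77 ± 0.305 FPKM and after doxorubicin to 1.78 ± 0.458 FPKM, against 0.471 ± 0.122 FPKM in vehicle. The calponin Cnn3 averaged 106 ± 7.16 FPKM in bleomycin, 113 ± 4.76 FPKM in doxorubicin, 64.8 ± 8.24 FPKM in IL-1β and 95.3 ± 10.1 FPKM in vehicle libraries and fell after IL-1β by 0.55 on the log2 scale. It was called higher after doxorubicin (0.25, limma adjusted p = 0.0247), a call lost with no filter and without doxorubicin replicate 1 or 4 or vehicle replicate 3 or 4.

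Of 22 crosslinking and focal adhesion genes, 5 rose and 5 fell after bleomycin, 6 rose and 3 fell after doxorubicin, and 2 rose and 11 fell after IL-1β. Csrp2, a LIM protein first known from smooth muscle, fell to 32.6 ± 6.85 FPKM in bleomycin and 24.2 ± 3.94 FPKM in doxorubicin libraries and rose to 110 ± 16.8 FPKM in IL-1β libraries, against 52.0 ± 2.40 FPKM in vehicle. Tns1, tensin of focal adhesions, rose by 0.69 after bleomycin and by 0.87 after doxorubicin. Of 10 other intermediate filament genes, 3 rose and 4 fell after bleomycin, 3 rose and 4 fell after doxorubicin, and 1 rose and 7 fell after IL-1β. Nes, nestin, which pairs with vimentin in filaments, fell by 0.59 after bleomycin and by 0.84 after IL-1β on the log2 scale. Lmnb1, the nuclear lamin B1, fell in every treatment, to 8.26 ± 0.462 FPKM in bleomycin, 3.91 ± 0.498 FPKM in doxorubicin and 12.7 ± 0.972 FPKM in IL-1β, against 22.7 ± 2.22 FPKM in vehicle libraries. The crosslinking list split otherwise after bleomycin under median-of-ratios scaling, with 3 higher and 10 lower, and after IL-1β under TPM scaling, with 2 higher and 18 lower.

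SRF and TGF-beta signalling both act on the contractile genes. Srf averaged 11.2 ± 0.474 FPKM in bleomycin, 11.6 ± 0.289 FPKM in doxorubicin, 12.1 ± 0.754 FPKM in IL-1β and 13.7 ± 1.16 FPKM in vehicle libraries and fell after both drugs, by 0.27 and 0.22 on the log2 scale. Mrtfa, a partner of SRF released by actin assembly, rose by 0.20 after bleomycin, a call lost under median-of-ratios and quantile scaling. Tgfb1, the growth factor that induces smooth muscle actin in fibroblasts, rose in every treatment, to 14.3 ± 0.872 FPKM in bleomycin, 12.5 ± 1.07 FPKM in doxorubicin and 15.5 ± 1.67 FPKM in IL-1β, against 8.15 ± 0.244 FPKM in vehicle libraries. The other ligands Tgfb2 and Tgfb3 rose after both drugs, Tgfb2 by 0.56 after bleomycin and 0.43 after doxorubicin and Tgfb3 by 0.47 and 0.36 on the log2 scale. Both fell after IL-1β, Tgfb2 to 9.11 ± 1.15 FPKM, against 17.7 ± 0.817 FPKM in vehicle, and Tgfb3 to 8.91 ± 0.466 FPKM, against 16.8 ± 0.738 FPKM. The receptor subunit Tgfbr2 fell after IL-1β to 20.5 ± 1.77 FPKM, against 55.0 ± 1.21 FPKM in vehicle (log2 difference -1.38), and Smad3, which carries the signal to the nucleus, fell to 10.5 ± 0.644 FPKM, against 17.7 ± 0.571 FPKM. Smad3 rose after both drugs, to 24.5 ± 1.06 FPKM in bleomycin and 24.0 ± 0.608 FPKM in doxorubicin libraries.

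Among the 12975 other tested genes, those most like Acta2 were ranked by the root mean square difference over the 4 group means of log2(FPKM + 1), each gene centred on its own mean. Thbs4, which encodes the matrix glycoprotein thrombospondin 4, came first at 0.11, with 9.43 ± 0.987 FPKM in bleomycin, 21.8 ± 3.70 FPKM in doxorubicin, 10.1 ± 2.39 FPKM in IL-1β and 28.9 ± 5.00 FPKM in vehicle libraries. Tagln came second at 0.14. The next 6 were Gm27204, Pappa2, BC006965, Cpxm2, Fam89a and Taf13, at 0.20 to 0.25, of which the first 3 averaged under 2 FPKM in every group. Cpxm2 averaged 28.4 ± 2.60 FPKM in bleomycin, 46.3 ± 4.07 FPKM in doxorubicin, 24.8 ± 3.81 FPKM in IL-1β and 44.8 ± 3.23 FPKM in vehicle libraries. Of the other genes of the set, Myl9 ranked 16, Cnn2 52, Actg2 87, Tpm1 142, Cnn1 271, Tpm2 323, Vim 1218 and Tagln2 4585. The measure uses 4 group means only and is a description.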

How the data were processed

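The deposited tables, 1 per library, list 55450 genes with FPKM values that the authors computed. The submitters' processing notes name Trimmomatic, STAR and the build GRCm38, without versions or roles. The FPKM tool and its annotation are not given in the sources used here. Per the labels, libraries were made with a stranded, poly(A)-selecting kit. FPKM hold no counts, and 72.4% to 84.9% of low values were within 0.1 of a whole fragment at the estimated depths, so no count test was run.

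A gene was tested if 4 or more of the 16 libraries reached 1 FPKM, which held for 12976 genes. Values were analysed as log2(FPKM + 1), which understates the change of low genes. limma 3.58.1 (R 4.3.3, mean-variance trend) was fitted to all 16 libraries with 1 mean per group and 12 residual degrees of freedom. P-values are two-sided and were adjusted by Benjamini-Hochberg over all tested genes in each of 6 comparisons. The fit was also run on simulated data with noise drawn independently for each gene, and its outcome is not reported here. Between replicates, 0.00853% of values or fewer were equal.

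The 10 genes, the related lists and the marker lists were chosen with earlier results of these data known, so a pattern seen before is no independent support. All 10 genes are named throughout. From the related lists, genes called with the 2 largest log2 differences from vehicle in a treatment could be named, as could any other actin or any SRF or TGF-beta regulator; the counts of the list that holds those regulators are not reported here. Myl6, Myh11, Saa3, Actn1, Vcl, Pdlim5, Csrp1, Krt8, Krt18, Col1a1, Col1a2, Col3a1 and the vascular markers are named outside this rule, after their values were seen. Alternatives were pseudocounts of 0.1 and 0.01, no filter or a filter of 5 FPKM, TPM, median-of-ratios and quantile scaling, a fit of the compared groups alone, no trend, a replicate block, and leaving out each library. Replicate numbers were not taken as pairs, since the labels do not say that they are. Deviations of same-numbered libraries from their group means correlated at -0.02 to 0.21, and over 0.1 in 6 of 24 pairs. The same number correlated best in 14 of 24 cases. Gene coordinates are from GENCODE M21, where 54312 identifiers matched with their version, and promoters from RefSeq, GRCm38.p6.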

Additional observations from a re-analysis of the deposited data

Results flagged for a closer look

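Vim in the IL-1β group had 1 library far from the others: replicate 2 measured 784 FPKM, against 609, 593 and 588 FPKM in replicates 1, 3 and 4. Its gap to the nearest library was a larger part of the group's range than Dixon's 95% critical value for 4 samples allows. Values of 10 genes in 4 groups, 40 sets in all, were examined this way, and chance flags about 1 in 20. Without a single library in turn, the log2 difference of Vim between IL-1β and vehicle ran from -0.85 to -0.70 and stayed called.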

How the results depend on the processing

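Of the 60 differences of the 10 genes (6 comparisons each), 45 kept their direction and their side of the threshold under all 26 alternatives, and 15 did not under at least 1. All 60 kept both with a pseudocount of 0.1 or 0.01 and with a filter of 5 FPKM. Under TPM scaling, bleomycin minus IL-1β turned for Tagln to 0.34 and for Tpm1 to 0.12; there the cause lies in the construction, since TPM divides IL-1β libraries by a larger FPKM sum. Numbers of genes called stayed within 1.5 times under every alternative. With 1 library left out, the number of the 10 genes called was 8 to 8 for bleomycin minus vehicle, 4 to 5 for doxorubicin minus vehicle, 9 to 10 for IL-1β minus vehicle, 5 to 8 for bleomycin minus doxorubicin and 9 to 9 for doxorubicin minus IL-1β. For bleomycin minus IL-1β it was 3 to 6, against 5 with all libraries, and it was 3 without bleomycin replicate 3 or without IL-1β replicate 4, where the calls of Myl9 and Tpm1 were lost; the cause was not tested. Called genes ran from 903 to 1376 for bleomycin minus doxorubicin, against 1301.

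The labels do not say that replicate numbers are pairs, so a block for replicate number was an alternative only. In the check of the pairing, the same number correlated best in 14 of 24 cases, each among 4 libraries. That is a hint of pairing from the data and not the design. The block gave 6209 genes called for bleomycin minus vehicle, 6441 for doxorubicin minus vehicle, 5735 for IL-1β minus vehicle and 1488 for bleomycin minus doxorubicin. It lost no call among the 10 genes and added 6: Acta2 for doxorubicin minus vehicle (limma adjusted p = 0.0155), Tpm2 for bleomycin minus vehicle (0.0378), Tpm1 and Tpm2 for bleomycin minus doxorubicin (0.0493 and 0.0172), and Actg2 and Tagln2 for bleomycin minus IL-1β (0.036 and 0.0343). Depth was estimated, not given, so no counting interval can be set on the levels of Cnn1, Actg2, Lmod1 or Myh11.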
